A study of Mus musculus with 6 samples.

Results

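The macrophage and dendritic cell genes described here are Cd68, Csf1r, Adgre1, Itgam, Itgax, Cx3cr1, C1qa, C1qb, C1qc and Lyz2. They were taken by symbol from the platform annotation of the array, which gave 15 probe sets for the 10 genes, of 18193 genes with a probe set of their own and 45101 probe sets in all. Total RNA of untreated colonic mucosa from C57BL/6 mice was hybridised, as biotinylated cRNA made by 3' in vitro transcription, to Affymetrix arrays. Of the 6 arrays 3 carry the label p38a-knockout (called KO A, KO B and KO C here, after that label) and 3 the label wildtype (WT A, WT B and WT C). The kinase p38a, which responds to stress and inflammatory signals, is the product of Mapk14. The labels give no age, no sex, no promoter or Cre that drove the deletion and no statement of which cells lost the gene. Nor do they name separate animals, so p-values here reflect the spread of these 6 samples alone, and that spread may be technical.

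Macrophages and dendritic cells are the mononuclear phagocytes of the gut wall. They lie mainly in the lamina propria beneath the epithelium, where macrophages are replenished from blood monocytes, clear dying cells and bacteria, and depend on signalling through the receptor Csf1r, while dendritic cells carry antigen to lymphocytes. Their surface receptors, integrins and secreted C1q and lysozyme are used to recognise them in a mixed tissue. Per the labels the cells are intestinal epithelial cells. All 10 epithelial marker genes examined (Epcam, Cdh1, the keratin genes Krt8, Krt18, Krt19 and Krt20, Vil1, Lgals4, Cldn7 and Car1) were read, with a mean of 12.94 to 13.11 on the log2 scale in each of the 6 arrays. The phagocyte genes were read beside this epithelial signal in bulk RNA, where fewer cells of a type and less RNA per cell cannot be told apart.

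Values are log2(signal + 16) after quantile normalization, a scale whose floor is 4 and which understates the change of dim genes. A probe set was tested where its mean over the 6 arrays reached 5.10, a signal of about 18.4. The signals as deposited were not on a common level. Their trimmed mean was 221, 191 and 201 in KO A, KO B and KO C and 139, 187 and 116 in WT A, WT B and WT C, and the 3' to 5' ratio of the Gapdh control, which goes up with RNA degradation, was 0.859 to 0.954 in the KO arrays and 0.989 to 1.45 in the WT arrays. The signal of Mapk14 did not fall under the knockout label. Its brightest probe set gave 9.72, 9.91 and 9.73 in the KO arrays and 9.31, 9.44 and 9.37 in the WT arrays, so KO stands only for the label throughout. Where the Mapk14 probe sets lie relative to the deletion was not examined. The number of arrays limits the precision.

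No macrophage or dendritic cell gene differed between the labels beyond the spread of the arrays. The comparison asks whether transcripts of mononuclear phagocytes differ between mucosa labelled p38a knockout and wild type. In limma's moderated test, 0 of the 10 probe sets above the filter had an adjusted p under 0.05, with adjusted p-values from 0.915 to 0.995, and over all 27002 probe sets tested the share was 0%. The smallest unadjusted p among them was 0.370 (Itgax), whereas 952 of all probe sets tested (3.53%) had an unadjusted p under 0.05. The groups overlapped on all 15 probe sets, while they were apart for 8.74% of all probe sets tested. Of the 10 genes, each by its brightest probe set, 4 had a higher mean in the KO arrays and 6 a lower one. The median of their log2 differences was -0.10, beside a median of 0.02 over all 12437 genes tested. For 8 of the 10 the standard error was larger than the difference itself. The exceptions were Itgam and C1qc, both of them below the filter.

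**Figure D1:**
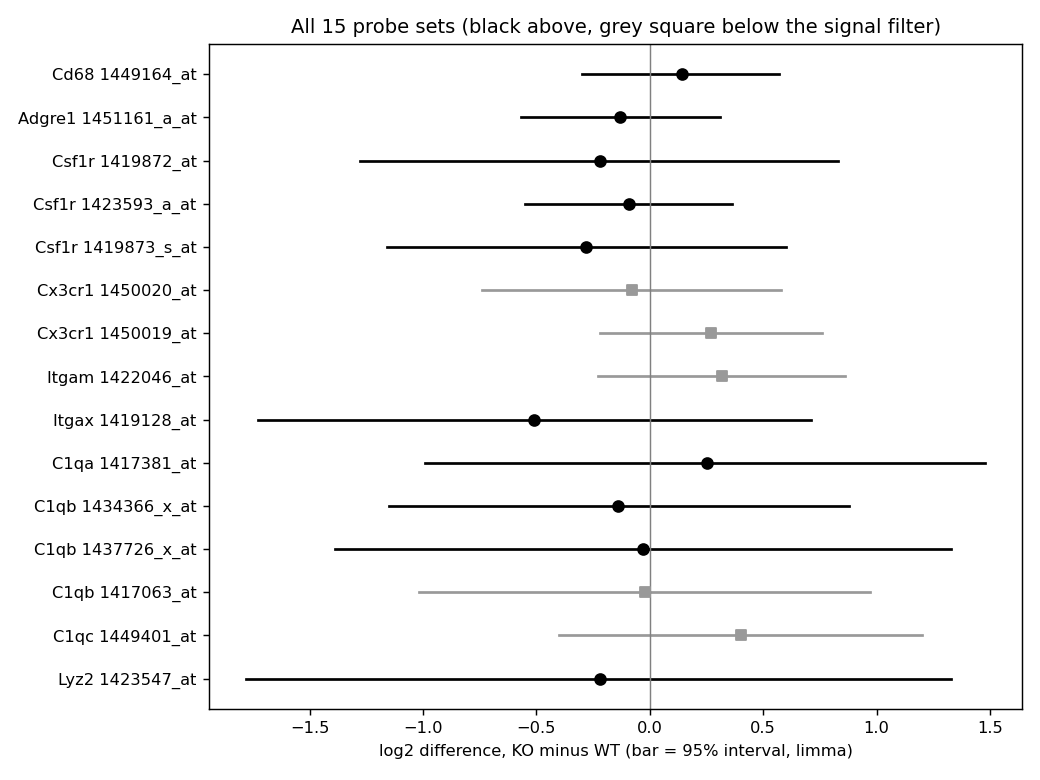
Log2 differences between the 3 arrays labelled knockout and the 3 WT arrays (x axis) for all 15 probe sets of the 10 genes, as points with 95% intervals from limma; probe sets below the signal filter are grey squares, taken from the fit with no filter. All 15 intervals include 0, and the widest, that of Lyz2, runs from -1.78 to 1.33.

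What varied was the array, in both groups. The 10 genes, 3 of them below the filter, spanned a median of 1.32 on the log2 scale between their lowest and highest array. Over all genes tested, which lay above the filter, the median was 0.71. The 2 medians were not matched for signal level. KO A and WT B were the 2 lowest arrays for Csf1r, Adgre1, Itgax, C1qa, C1qb and Lyz2, which are 6 of the 7 genes above the filter, and also for Itgam, Cx3cr1 and C1qc below it. This order held for 12.9% of all genes tested by their brightest probe set, and, counting probe sets, for 7 of the 10 above the filter and 14.5% of all tested. On the signals as deposited it held for 5 of the 7 genes, and for 6 of the 10 probe sets above the filter against 7.70% of all probe sets tested. That pair of arrays was read off the values of these genes, so the counts are a description. They also hide margins: in Adgre1 KO A, at 6.18, lay just below KO B and KO C, both at 6.19. On the second Cx3cr1 probe set KO A and WT B were the 2 highest arrays. KO A had the highest trimmed mean of the 6 arrays and WT B a trimmed mean of 187, and their Gapdh ratios were 0.907 and 0.989. WT C, with the lowest trimmed mean (116) and the highest Gapdh ratio (1.45), was the highest array for the mean of the 7 genes above the filter, at 6.84. With the Gapdh ratio in the model the median difference of the 10 genes was 0.59 in place of -0.10, with 0 called in limma. Every KO array had a lower ratio than every WT array, so this model cannot fully separate the ratio from the label. The part of signal level and RNA quality in the pattern was not tested beyond these values. Over all probe sets tested, KO A and WT B also deviated together from their group means (r = 0.54, the highest of the 9 pairs of a KO with a WT array).

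**Figure D2:**
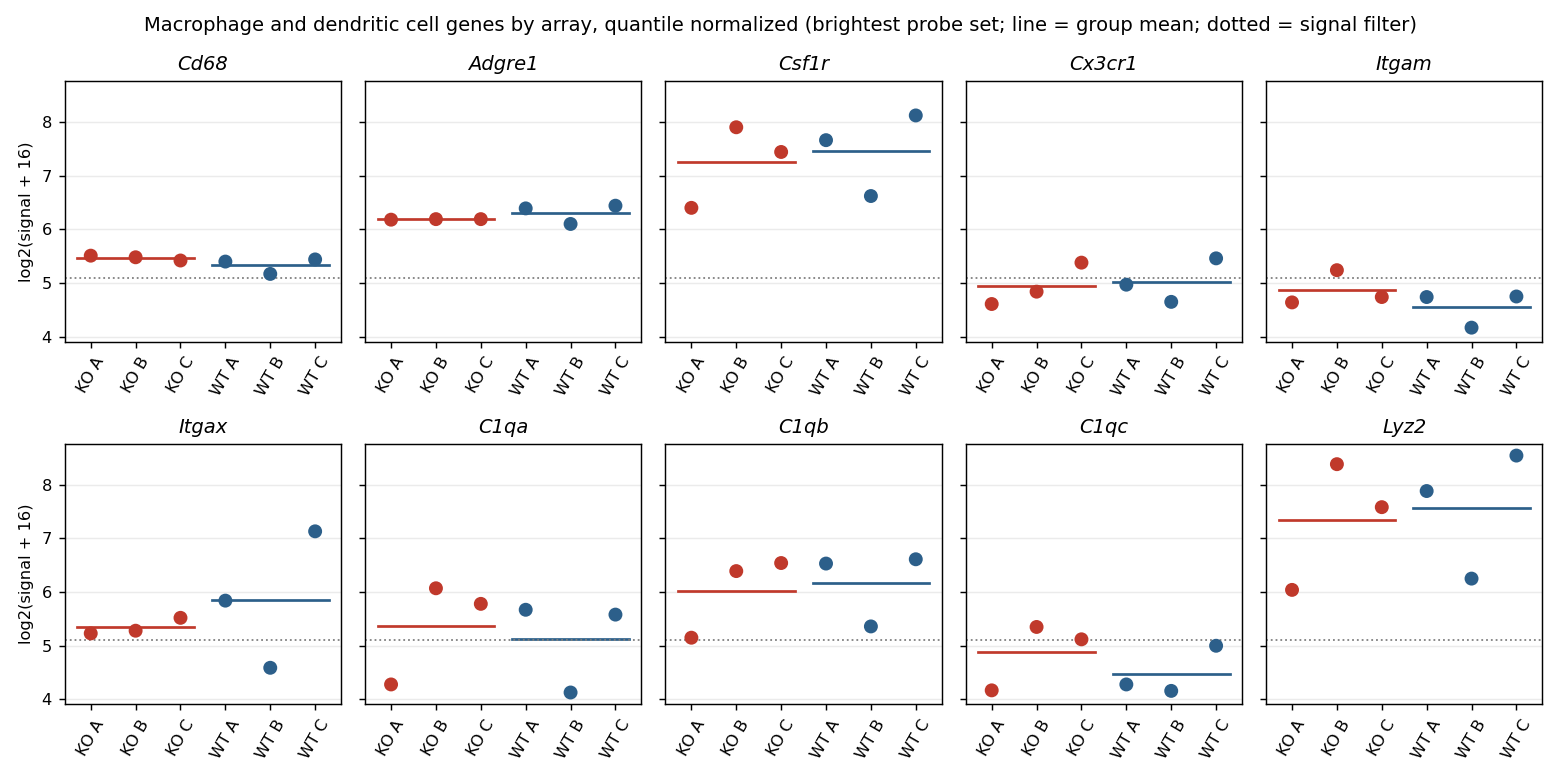
Brightest probe set of each of the 10 genes in each array (points; red, labelled knockout; blue, wild type), on the quantile-normalized log2(signal + 16) scale, with group means as horizontal lines and the signal filter of 5.10 as a dotted line. KO A and WT B lie low in Csf1r, C1qa, C1qb and Lyz2, for example at 6.04 and 6.25 for Lyz2, while Cd68 and Adgre1 are nearly level.

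By brightest probe set the pan-macrophage genes Cd68 and Adgre1 were the steadiest of the 10, each with a log2 range of 0.35 over the arrays. Cd68 was dim, with deposited signals of 18.4 to 32.3, where the scale understates change. A dimmer Csf1r probe set, 1423593_a_at, had a range of 0.41, so the contrast between genes depends on the probe set shown. Cd68, which encodes the lysosomal glycoprotein macrosialin, read 5.51, 5.48 and 5.42 in KO A, KO B and KO C and 5.40, 5.17 and 5.44 in WT A, WT B and WT C. The group means were 5.47 ± 0.05 and 5.34 ± 0.15 (SD, n = 3 each), so that the log2 difference was 0.14 (SE 0.19, adjusted p = 0.921 in limma; exact two-sided permutation p = 0.200, where 0.1 is the smallest that 3 against 3 arrays can give). WT B was lowest, and WT C lay between KO C and KO B, so the groups overlapped. Adgre1 encodes the adhesion G protein-coupled receptor detected by the standard macrophage antibody F4/80. It read 6.18, 6.19 and 6.19 in KO A, KO B and KO C and 6.39, 6.10 and 6.44 in WT A, WT B and WT C. Its log2 difference was -0.13 (SE 0.19, limma adjusted p = 0.923), and WT B again lay below every other array. Among the 10 probe sets above the filter, only those of Cd68 and Adgre1 had separate groups on the signals as deposited. The Cd68 signals were 32.3, 32.2 and 30.9 in the KO arrays against 22.6, 18.4 and 23.8 in the WT arrays, and those of Adgre1 were 63.6, 64.3 and 68.2 against 56.0, 50.9 and 54.5. On that scale 23.7% of all probe sets tested lay higher in every array labelled knockout, the median of all probe sets was 0.40 higher there, and the differences of 0.35 for Cd68 (limma adjusted p = 0.295) and 0.22 for Adgre1 (limma adjusted p = 0.454) were smaller than that median.

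Csf1r, the receptor for the growth factors Csf1 and Il34 on which most tissue macrophages depend, was read by 3 probe sets that differed in how far they moved. The brightest (1419872_at) read 6.40, 7.90 and 7.44 in KO A, KO B and KO C and 7.66, 6.62 and 8.12 in WT A, WT B and WT C. KO A and WT B were low in it, and the other 4 arrays lay between 7.44 and 8.12. Its range over the arrays was 3.30-fold, against a log2 difference between the labels of -0.22 (95% interval -1.28 to 0.83, limma adjusted p = 0.940). The probe set 1419873_s_at read 4.47, 5.74 and 5.77 in the KO arrays and 5.24, 5.46 and 6.12 in the WT arrays, so it was low in KO A but not in WT B. The probe set 1423593_a_at stayed between 5.91 and 6.32 in all 6 arrays. Which part of the transcript each probe set reads was not tested. Of the ligands, Csf1 read 5.84 to 6.04 in the KO arrays and 5.49 to 5.97 in the WT arrays (log2 difference 0.22, SE 0.21, limma adjusted p = 0.915), and Il34 lay below the filter.

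Cx3cr1, the receptor for the chemokine Cx3cl1 on monocytes and gut macrophages, lay below the filter on both of its probe sets, which went opposite ways. The brighter (1450020_at) read 4.61, 4.84 and 5.38 in KO A, KO B and KO C and 4.97, 4.65 and 5.46 in WT A, WT B and WT C. The other (1450019_at) was highest in KO A, at 5.03, and read 4.52 and 4.24 in B and C and 4.27, 4.54 and 4.17 in the WT arrays. In the fit with no filter their log2 differences were -0.08 (SE 0.29) and 0.27 (SE 0.21), with limma adjusted p-values of 0.981 and 0.931. Cx3cl1 itself, which epithelial and endothelial cells make, read 7.18 to 7.72 in the KO arrays and 7.40 to 8.18 in the WT arrays (log2 difference -0.27, SE 0.26, limma adjusted p = 0.915).

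The integrin genes Itgam and Itgax encode CD11b and CD11c, alpha chains that pair with the beta chain Itgb2. CD11b marks macrophages, monocytes and granulocytes, and CD11c marks dendritic cells and many gut macrophages, as well as some intraepithelial lymphocytes. Itgax spanned 5.83-fold over the arrays, the widest range of the 10 genes, and that range lay within the WT arrays. It read 5.84, 4.59 and 7.13 in WT A, WT B and WT C and 5.23, 5.28 and 5.52 in KO A, KO B and KO C. Its log2 difference of -0.51 (SE 0.54, limma adjusted p = 0.915) turned to 0.13 without WT C and became -1.14 without WT B. Itgam lay below the filter, at 4.64, 5.24 and 4.74 in KO A, KO B and KO C and 4.74, 4.17 and 4.75 in WT A, WT B and WT C, with KO B highest and WT B lowest. In the fit with no filter its log2 difference was 0.32 (SE 0.24, limma adjusted p = 0.931). The shared partner Itgb2 read 6.01, 6.61 and 6.35 in the KO arrays and 6.78, 5.88 and 7.76 in the WT arrays. WT C was the highest array and WT B the lowest for both Itgb2 and Itgax.

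C1qa, C1qb and C1qc encode the 3 chains of C1q, the recognition molecule of the classical complement pathway, which tissue macrophages secrete, and in the RefSeq gene table the 3 genes are neighbours on chromosome 4 in the order C1qb, C1qc, C1qa. C1qa read 4.28, 6.07 and 5.78 in KO A, KO B and KO C and 5.67, 4.13 and 5.58 in WT A, WT B and WT C. In deposited signals this was 3.50, 58.3 and 45.9 against 29.8, 1.31 and 27.1, so KO A and WT B were close to the floor of the scale and the other 4 were not. The log2 difference between the labels was 0.25 (95% interval -0.99 to 1.48, limma adjusted p = 0.943), which in fold terms leaves room from 0.505 to 2.80. C1qb had 3 probe sets. The brightest (1434366_x_at) read 5.15, 6.39 and 6.54 in KO A, KO B and KO C and 6.53, 5.36 and 6.61 in WT A, WT B and WT C, and the log2 difference was -0.14 (SE 0.45, adjusted p = 0.969 in limma). On 1437726_x_at KO A stood at 4.16 and WT B at 4.09, and the other arrays at 5.23 to 6.24. On 1417063_at, below the filter, the same arrays stood at 4.11 and 4.60 and the others at 5.29 to 5.71. The 3 probe sets therefore agreed on which arrays were low. C1qc, below the filter, read 4.17, 5.35 and 5.12 in KO A, KO B and KO C and 4.28, 4.16 and 5.0 in WT A, WT B and WT C, with WT A at the floor together with the low pair, unlike for C1qa and C1qb. In the fit with no filter its log2 difference was 0.40 (SE 0.34, limma adjusted p = 0.931).

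Stretches of 250 bases upstream of the starts of C1qb, C1qc and Lyz2 are shown, from RefSeq on GRCm38.p6. Each ends at the base before the start and runs 5′ to 3′ on the strand of the gene. Capitals mark GAGGAA or, on the opposite strand, TTCCTC, the core motif of PU.1, the myeloid transcription factor encoded by Spi1. The C1qb stretch lies at chr4:136886201-136886450 (minus strand), the C1qc stretch at chr4:136892915-136893164 (minus strand) and the Lyz2 stretch at chr10:117282273-117282522 (minus strand). That of Itgam, at chr7:128062390-128062639 (plus strand), is shown as the one with most matches.
C1qb: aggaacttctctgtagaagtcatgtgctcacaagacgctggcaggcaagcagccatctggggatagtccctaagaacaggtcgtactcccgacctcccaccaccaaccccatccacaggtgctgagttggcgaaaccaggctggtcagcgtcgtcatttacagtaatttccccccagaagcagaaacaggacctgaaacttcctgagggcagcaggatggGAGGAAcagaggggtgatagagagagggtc
C1qc: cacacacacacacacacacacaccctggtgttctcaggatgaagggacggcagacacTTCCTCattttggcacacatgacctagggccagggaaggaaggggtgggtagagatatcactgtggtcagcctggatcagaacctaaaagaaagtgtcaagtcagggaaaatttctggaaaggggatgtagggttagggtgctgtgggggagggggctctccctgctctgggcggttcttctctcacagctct
Lyz2: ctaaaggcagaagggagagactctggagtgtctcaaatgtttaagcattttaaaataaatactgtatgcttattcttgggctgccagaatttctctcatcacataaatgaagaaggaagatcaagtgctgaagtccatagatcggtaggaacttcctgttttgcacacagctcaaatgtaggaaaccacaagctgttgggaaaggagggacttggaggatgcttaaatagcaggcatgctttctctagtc
Itgam: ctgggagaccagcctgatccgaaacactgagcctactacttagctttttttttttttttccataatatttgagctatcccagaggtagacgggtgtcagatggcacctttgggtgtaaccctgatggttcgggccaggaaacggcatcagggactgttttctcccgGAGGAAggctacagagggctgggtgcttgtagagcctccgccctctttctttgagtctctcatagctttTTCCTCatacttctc
The motif begins at -30 in C1qb, at -193 on the opposite strand in C1qc, and at -84 and, on the opposite strand, at -15 in Itgam. Of the 10 genes 7 were in the RefSeq promoter table, and 4 of these (C1qb, C1qc, Cd68 and Itgam) held the motif on either strand, while Lyz2, Itgax and Cx3cr1 did not. The motif was in 23.3% of all 32851 windows. A match is a description of the letters only. Spi1 itself read 5.15, 5.23 and 5.22 in KO A, KO B and KO C and 5.20, 5.46 and 5.71 in WT A, WT B and WT C (log2 difference -0.26, SE 0.21, limma adjusted p = 0.915), and was not low in WT B.

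Lyz2, the lysozyme gene of macrophages and granulocytes, showed the same arrays low on a wide scale. It read 6.04, 8.38 and 7.58 in KO A, KO B and KO C and 7.88, 6.25 and 8.54 in WT A, WT B and WT C, a range of 5.65-fold. The group means were 7.33 ± 1.19 and 7.56 ± 1.18 (SD, n = 3 each), and the log2 difference was -0.22 (SE 0.68, 95% interval -1.78 to 1.33, limma adjusted p = 0.964). The SD within either group was thus larger than the difference between them, and a change of up to 0.292-fold or 2.51-fold in the knockout lies within the interval. Lyz1, the neighbouring and closely similar lysozyme gene known from Paneth cells, was read by 3 probe sets. Those marked for possible cross-hybridisation followed Lyz2: 1436996_x_at read 6.61, 9.75 and 8.50 in KO A, KO B and KO C and 9.40, 6.63 and 9.61 in WT A, WT B and WT C, and 1439426_x_at read 5.75, 7.49 and 7.09 against 7.74, 5.86 and 7.94. The unmarked Lyz1 probe set, below the filter, stayed between 4.70 and 5.42 and was highest in WT B. Whether the marked probe sets read Lyz2 transcript was not tested.

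Further phagocyte genes gave no call either, in lists drawn up by function. Of 21 genes of phagocyte surface receptors 12 passed the filter and 0 were called in limma, 8 being higher and 4 lower. The median was 0.06, with 0 at an unadjusted p under 0.05. The smallest p-values belonged to Cd83, a maturation marker of dendritic cells, at 0.33 (SE 0.20), Sirpa, an inhibitory receptor that binds CD47, at 0.33 (SE 0.20) and Clec7a, the beta-glucan receptor dectin-1, at 0.30 (SE 0.30), each with a limma adjusted p of 0.915. For Cd83 and Sirpa all KO arrays lay above the WT arrays. KO A and WT B were the lowest pair for 4 of the 12. Of 20 signalling, lysosome and effector genes 17 passed the filter and 0 were called, 7 higher and 10 lower, with a median of -0.24. Cyba, a subunit of the phagocyte oxidase that epithelium also makes, stood at 0.47 (SE 0.22), Pf4, with all KO arrays above the WT arrays, at 0.50 (SE 0.26) and the phosphatase gene Ptpn6 at -0.46 (SE 0.29). KO A and WT B were the lowest pair for 10 of these 17 genes, beside 12.9% of all genes tested. Mpeg1, a pore-forming protein of macrophages chosen here after its values were seen, read 5.60, 7.07 and 6.41 in KO A, KO B and KO C and 6.53, 5.16 and 7.38 in WT A, WT B and WT C. Apoe, chosen in the same way, read 4.88, 6.01 and 6.39 against 6.27, 4.20 and 6.75.

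Dendritic cell genes were few above the filter. Of 11 listed 5 passed, namely Flt3, Itgae, Fscn1, Siglech and Ly75, and 0 were called, 3 higher and 2 lower (median 0.01), with KO A and WT B the lowest pair for 1 of the 5. The defining genes of cross-presenting dendritic cells, Xcr1 and Batf3, and Zbtb46 were below the filter. Ly75, the endocytic receptor DEC-205, read 8.76, 8.77 and 9.33 in KO A, KO B and KO C and 8.53, 8.23 and 8.24 in WT A, WT B and WT C. Its groups did not overlap, and its log2 difference was 0.62 (SE 0.21, unadjusted p = 0.0181, limma adjusted p = 0.915), the only gene of the list with an unadjusted p under 0.05. Ly75 is also made by epithelial cells, and Itgae, which read 7.47, 8.50 and 8.04 against 8.52, 7.43 and 9.41, is also made by intraepithelial T cells.

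Among 12 myeloid transcription factors 9 passed the filter and 0 were called, 6 higher and 3 lower (median 0.01), with Runx3 at -0.34 (SE 0.26) and Irf8 at 0.21 (SE 0.24), and KO A and WT B the lowest pair for 2 of the 9. Among 13 ligands and cytokine receptors 7 passed and 0 were called, 4 higher and 3 lower (median 0.05), with Tgfbr2 at 0.30 (SE 0.26) and KO A and WT B the lowest pair for 2 of the 7. Of 11 complement partners of C1q 6 passed and 0 were called, 3 higher and 3 lower (median -0.03), with the chaperone gene Calr at -0.25 (SE 0.12), Serping1, the C1 inhibitor gene, at -0.37 (SE 0.35) and C1qbp at 0.14 (SE 0.21). KO A and WT B were the lowest pair for 0 of these 6. The proteases C1r and C1s, which associate with C1q, are the nearest partners: C1ra read 5.71, 6.53 and 6.22 in KO A, KO B and KO C and 6.07, 6.37 and 5.86 in WT A, WT B and WT C, so that WT B was not low.

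Markers of other cells moved with the arrays to differing degrees. Of 9 T cell markers 6 passed the filter. Their summed deposited signal was 369 to 724 in the KO arrays and 352 to 964 in the WT arrays. Their mean log2 value was 5.84, 6.67 and 6.15 in KO A, KO B and KO C and 6.78, 6.03 and 7.60 in WT A, WT B and WT C, so that KO A and WT B were the lowest pair there too, as they were for the mean of the 7 phagocyte genes above the filter (5.54 and 5.46, beside 6.35 to 6.84 in the other arrays). All 6 T cell genes were lower in the knockout mean, with a median of -0.59 and 0 called, Cd3e at -1.01 (SE 0.35, unadjusted p = 0.0196, limma adjusted p = 0.915) with all KO arrays below the WT arrays, Cd3d at -0.68 (SE 0.45) and Cd3g at -0.68 (SE 0.49). Of 8 B cell markers 4 passed, with a summed signal of 161 to 321 and 113 to 228, a mean log2 value of 5.53, 6.31 and 5.63 against 6.34, 5.50 and 6.21, again lowest in KO A and WT B, and 4 of 4 lower (median -0.18). The least p-values were those of Fcer2a at -0.42 (SE 0.37), Cd79b at -0.25 (SE 0.32) and Blk at -0.11 (SE 0.23). Of 5 natural killer cell markers 3 passed, with a summed signal of 279 to 505 and 274 to 642, and 3 of 3 were lower (median -0.25), among them Klrd1 at -0.83 (SE 0.46). Their mean log2 value, too, was lowest in KO A and WT B, at 5.87 and 6.09 beside 6.29 to 7.19. Of 5 mast cell markers 3 passed, with a summed signal of 220 to 538 and 138 to 522, a median of 0.02 and a mean log2 value of 6.21 in KO A and 5.86 in WT B, beside 6.47 to 7.75. Counted by gene, KO A and WT B were the lowest pair for 4 of the 6 T cell genes but only 1 of the 4 B cell genes. In Cd79b, Blk and Ms4a1 KO C lay below KO A, while Fcer2a read 4.33 in KO A, near the floor. The pair was lowest for 2 of the 3 natural killer cell genes and 2 of the 3 mast cell genes, beside 12.9% of all genes tested. No marker of these lists was at 0 in the deposited table, and the part of other cells in the pattern was not tested.

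Granulocytes share Lyz2, Itgam and C-type lectins with macrophages. Of 11 granulocyte markers 5 passed the filter, and their summed signal was 148 to 611 in the KO arrays and 132 to 180 in the WT arrays. The highest value came from KO B, in which S100a9, a subunit of calprotectin, read 7.50, against 5.11 and 4.46 in A and C and 4.21 to 5.80 in the WT arrays. S100a8 (8.25) and Csf3r (5.68) were also highest in KO B, but Ngp was highest in WT A (6.16) and Ltf in WT C (6.30). KO B had the highest value of Itgam, which lay below the filter, whereas Lyz2 was highest in WT C. The neutrophil genes Mpo, Elane, Camp and Cxcr2 were below the filter, and 0 of the 5 genes were called, with Csf3r at 0.51 (SE 0.26) and Ngp at -0.35 (SE 0.23).

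Among stromal genes the order with KO A and WT B lowest held only for some fibroblast genes. It held for 0 of the 3 smooth muscle genes above the filter and 0 of 1 endothelial gene. Among the 10 epithelial genes it held for 1, beside 12.9% of all genes tested. Of 6 fibroblast markers 5 passed, with a summed signal of 452 to 2310 and 786 to 1220. Their mean was lowest in KO A, at 6.28, but WT B, at 6.92, lay above KO C at 6.88. KO A and WT B were the lowest pair for 2 of the 5 genes, the collagen genes Col3a1 (6.56 and 7.89) and Col1a2 (5.92 and 6.40), but not for Dcn, which encodes the matrix proteoglycan decorin and read 7.65 in KO A, 8.67 in KO C and 9.38 in WT B. Of 5 smooth muscle markers 3 passed, with a summed signal as deposited of 272 to 628 and 137 to 219. On that scale the KO arrays had the higher trimmed means. After normalization the groups overlapped, with a mean log2 value of 7.23, 6.26 and 6.16 in KO A, KO B and KO C and 6.30, 5.63 and 6.18 in WT A, WT B and WT C. KO A was the highest for Tagln, at 6.88. All KO arrays lay above the WT arrays for Tagln (log2 difference 1.04, SE 0.40, unadjusted p = 0.0310, limma adjusted p = 0.915). The groups overlapped for Acta2, at 0.56 (SE 0.30), and Des, at -0.06 (SE 0.39). Of 6 endothelial markers only Kdr passed, with a signal of 14.5 to 48.6 and 30.3 to 38.3. The epithelial markers had a summed signal as deposited of 89300 to 98500 and 78200 to 89200, with 0 of 10 called and a median of -0.03. Their normalized mean overlapped, at 12.94 to 13.09 and 12.94 to 13.11. Of 5 Paneth cell markers 3 passed. Ang4, an angiogenin gene, stood at -0.85 (SE 0.20, unadjusted p = 0.00260, limma adjusted p = 0.915) with all KO arrays below the WT arrays. The summed Paneth cell signal as deposited was 5510 to 9470 and 10600 to 11700. Nearly all of it came from Ang4 alone (5040 to 9270 and 10100 to 11600), so the sum repeats that gene. Mmp7 stood at 0.12 (SE 0.29). The mean log2 value was lowest in KO A and WT B (8.79 and 8.83, beside 8.95 to 9.65), but of the 3 genes only Lyz1 had that order. Lyz1 was read here by 1436996_x_at, which is marked for possible cross-hybridisation. Mmp7 was highest in KO A and WT B (6.75 and 6.44, beside 5.74 to 6.26), and Ang4 was lowest in KO C.

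**Figure D3:**
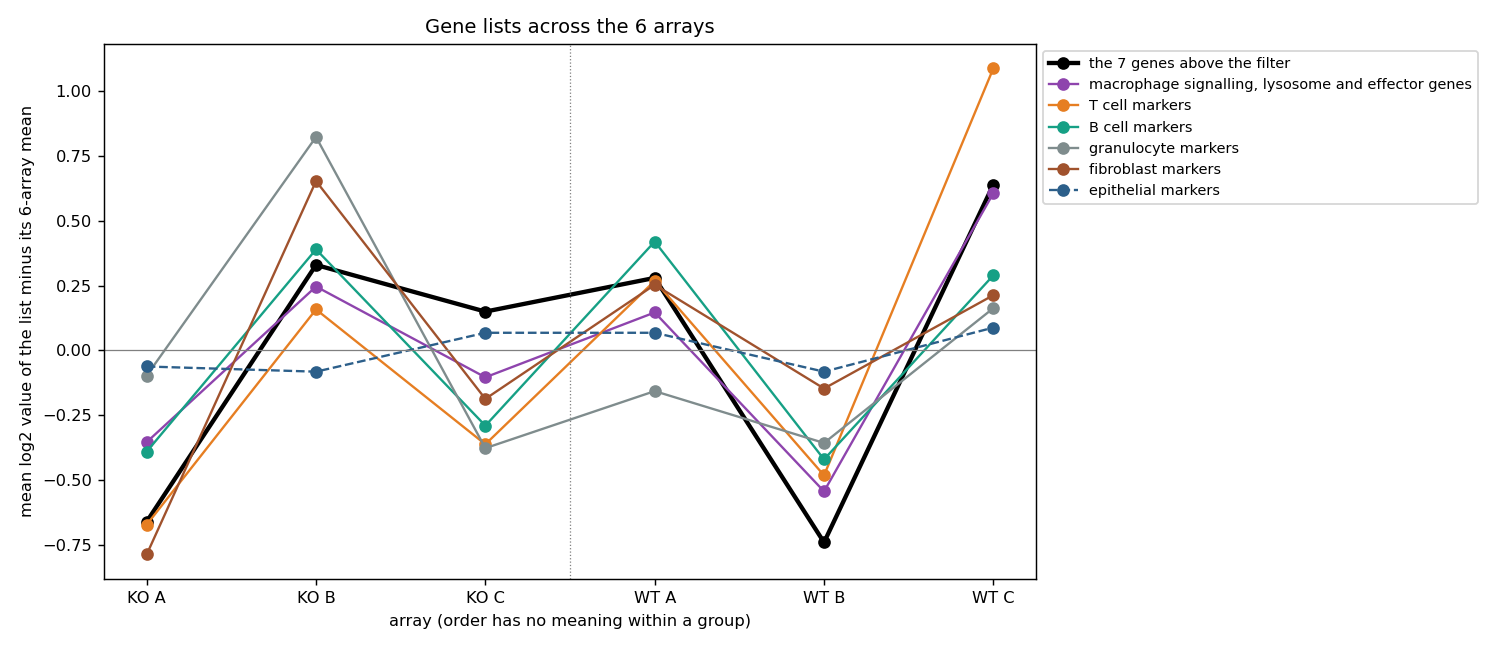
Mean log2 value of the 7 phagocyte genes above the filter (black) and of 6 other gene lists in each of the 6 arrays (x axis), each minus its mean over the arrays. The phagocyte genes (5.54 in KO A and 5.46 in WT B, 6.35 to 6.84 elsewhere), the effector genes, the T cell markers and the B cell markers (5.53 and 5.50) are lowest in the same pair of arrays and the granulocyte and fibroblast markers are not, while the epithelial markers vary between 12.94 and 13.11 only.

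The genes whose values most resembled the phagocyte pattern were sought over the 6 arrays, as those with the highest Pearson correlation with the mean of the standardised values of the 7 genes above the filter. They were Foxj2 (r = 0.995), Gadd45b (r = 0.992), Ctla2b (r = 0.992), Lpxn (r = 0.990), Slc24a3 (r = 0.988) and Garem1 (r = 0.987). Lpxn encodes leupaxin, a focal adhesion protein of blood cells, and Gadd45b a stress-inducible gene product. Lpxn read 6.30, 6.96 and 6.87 in KO A, KO B and KO C and 7.19, 6.03 and 7.30 in WT A, WT B and WT C. Over these 6 points, which share the normalization, 287 of 12430 genes (2.31%) had r of 0.9 or more and 78 (0.628%) had r of 0.95 or more. In the opposite direction 417 genes reached the same floor of 0.9. The 6 genes are the highest of all these, so the correlation is a description of likeness only.

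Leaving out single arrays moved the difference of the genes with a wide range in either direction. Without KO A the log2 differences were 0.80 for C1qa, 0.30 for C1qb, 0.20 for Csf1r and 0.42 for Lyz2. Without WT B they were -0.25, -0.54, -0.65 and -0.88. Both arrays were already known to be low in these genes. A rise without KO A and a fall without WT B were thus given in advance. None of these genes was called in limma in either setting (adjusted p of 0.427 or more). Cd68 kept a difference of 0.05 to 0.19 and Adgre1 one of -0.23 to -0.06 over the 6 arrays left out.

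**Figure D4:**
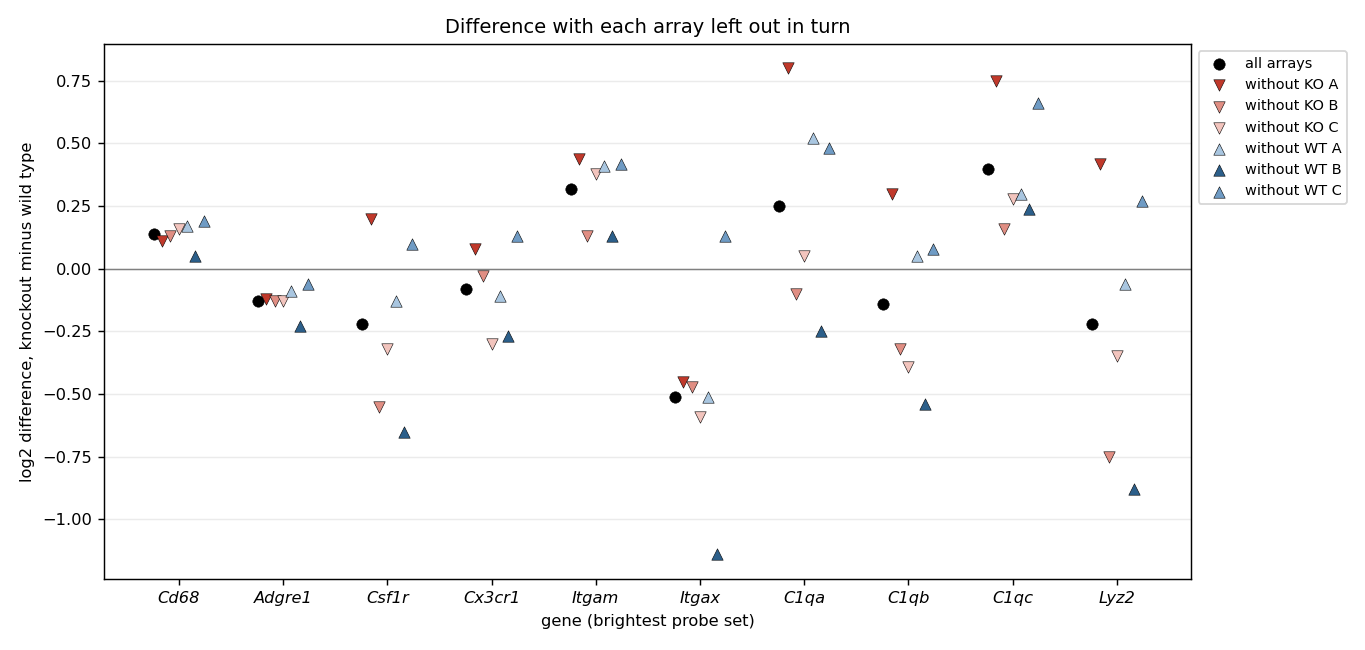
Log2 difference between the KO arrays and wild type (y axis) for each gene with all 6 arrays (black) and with each array left out in turn (downward triangles, a knockout array left out; upward, a wild-type array). For C1qa, C1qb, Csf1r and Lyz2 the sign depends on the array left out, with 0.42 for Lyz2 without KO A and -0.88 without WT B. Both arrays were already known to be low in these genes.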

How the data were processed

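Each probe set has 1 deposited linear intensity per array, made by the authors with MAS5 per the submitters' processing notes, in a version and with a scaling not given in the sources used. Because the deposited intensities had different trimmed means (2% trimmed), log2(signal + 16) was quantile normalized over all 45101 probe sets in limma 3.58.1 (R 4.3.3). Control probe sets (64) and all below the 40th percentile of the mean were dropped, leaving 27002. Symbols came from the platform annotation. lmFit and trended eBayes tested KO against WT (4 residual and 4.57 prior df), with Benjamini-Hochberg adjusted p-values over all of these and a threshold of 0.05. A gene is represented by its brightest probe set. The fit was tested on simulated data.

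The genes, lists and alternatives were chosen with earlier results of these data known. All 10 genes and their probe sets are named; from other lists, the 3 genes with the smallest p or fewer, and the 6 most alike genes. Fscn1, Flt3, Mpeg1, Apoe, C1ra, Itgb2, Dcn and S100a9 among others were named after their values were seen.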

Additional observations from a re-analysis of the deposited data

How the results depend on the processing

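Under the alternatives run, 0 of the 10 genes were called (lowest limma adjusted p 0.246). The median difference, -0.10, was 0.24 on the signals as deposited, 0.00 with median centring, 0.03 over probe sets not marked x or s, 0.59 with the Gapdh ratio in the model, 0.69 against WT B alone, and -0.26 to 0.25 with 1 array left out. Over all features limma called 0, but 1 on the signals as deposited, 1 with median centring, 1 with the replicate block, 1 with the Gapdh ratio, 2 against WT B alone, 74 with array weights and 0 to 2 with 1 array left out. Array weights were estimated gene by gene, since the default estimate did not converge. Between same-lettered arrays the deviations from the group means correlated at -0.07, -0.16 and 0.43 (A, B and C), so the letters are not taken as pairs. In this balanced design the replicate block cannot alter a difference (the median stays at -0.10), only its error.

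Of 14 settings with no array left out singly, 6 (both other filters, the brightest probe sets, both other priors and the block) cannot alter a difference. In the other 8 the direction turned for 20 of 80 combinations of gene and setting, 6 of them against WT B alone, where a higher value was given in advance because that array was already known to be low. On the signals as deposited these were Csf1r (0.23), Adgre1 (0.22), Cx3cr1 (0.08), C1qb (0.21) and Lyz2 (0.24). Against WT B alone Csf1r read 0.62, Adgre1 0.09, Itgax 0.76, Cx3cr1 0.29, C1qb 0.67 and Lyz2 1.08, and with the Gapdh ratio 0.55, 0.03, 0.79, 0.29, 0.39 and 0.96. Lyz2 turned to 0.01 with median centring, C1qa to 0.00 (just below it) with array weights, and Cx3cr1 to 0.09 as the mean of its probe sets. The cause was not tested. With 1 array left out the direction turned in 12 of 60 combinations, the ranges being -0.65 to 0.20 for Csf1r, -0.30 to 0.13 for Cx3cr1, -0.25 to 0.80 for C1qa, -0.54 to 0.30 for C1qb, -1.14 to 0.13 for Itgax and -0.88 to 0.42 for Lyz2. The 95% interval of the difference is -0.30 to 0.57 for Cd68 and -1.78 to 1.33 for Lyz2, whose interval is the widest. In dim genes the floor of the scale limits the difference.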
